A study of Mus musculus with 27 samples.

Results

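The collagen genes measured in the mouse retina were taken as every gene symbol of the form Col, a number, a, a number, such as Col4a1. This gave 44 of the 40129 genes of the table, and the rule uses the symbol alone and no measured value. By the collagen type they encode, 8 were basement membrane collagens, 11 fibrillar collagens, 9 fibril-associated collagens (FACIT), 6 type VI collagens, 3 short-chain collagens, 4 transmembrane collagens and 3 others (Col7a1, Col26a1 and Col28a1). The retinas came from wild-type (WT) C57BL/6 pups (C57BL/6J in the study's methods), male and female, in oxygen-induced retinopathy (OIR), a model in which high oxygen first removes central retinal vessels and the hypoxic retina later grows new ones. OIR pups breathed 75% oxygen from postnatal day 7 to 12 and were taken at day 14 (OIR p14, 6 mice from 4 litters), when large areas lack vessels, or at day 17 (OIR p17, 8 mice from 3 litters), at the peak of neovascularization. Controls stayed in room air until day 14 (nOIR p14, 7 mice from 3 litters) or day 17 (nOIR p17, 6 mice from 2 litters). Each library held the RNA of 1 or 2 whole retinas of 1 mouse. The deposited values are read counts divided by a size factor for each mouse, called normalized reads here. The question asked of them was which collagen genes differed between OIR and nOIR retinas at each age, and whether the classes differed.

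Collagens are secreted or membrane-bound proteins whose alpha chains wind around each other into a stiff helix. Type IV chains build the sheet of the basement membrane that surrounds every blood vessel and lines the inner surface of the retina, and the type XV and XVIII chains anchor it to the surrounding matrix. Fibrillar chains (types I, II, III, V, XI, XXIV and XXVII) form the fibers of connective tissue and, as types II, V and XI, of the vitreous. FACIT chains such as type IX sit on the surface of those fibers, and type VI chains form beaded filaments between fibers and basement membranes.

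Of the 27 mice, 26 were used. Mouse S4 of nOIR p14 was left out, as in the study. Its 8 lens markers summed to 18186 normalized reads, against 40.0 to 19516 in the 6 others of its group, and it stood above all of them in 16 of the 44 collagen genes, within them in 25 and below them in 3. The libraries held 17029536 to 33593428 reads on genes (median 30024568), and all 44 collagens passed the filter of a mean of at least 1 normalized read. The tissue carried its markers in every mouse, with 6 Müller glia markers summing to 53595 to 79955 normalized reads. Mouse S4 of OIR p14 stood apart in the ciliary body marker Optc (929 normalized reads, against at most 160.4 in the other groups) and had the highest value in 6 of the 7 collagens higher at p14, and the counts, calls and marker ratios that changed most without it are given both ways. Mice were the replicates, but the litter of each is not labelled, so the p-values treat littermates as independent.

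The genes of the main vascular collagen, Col4a1 and Col4a2, lie head to head, and their start regions are shown because the transcripts of both genes begin in the same short stretch of the genome. In RefSeq coordinates of GRCm38.p6, Col4a1 starts at position 11312826 of chromosome 8 on the minus strand and Col4a2 at 11312805 on the plus strand. Each sequence runs 5′ to 3′ on the strand of its gene from 250 bases before the start to 50 after it, which gives chr8:11312777-11313076 for Col4a1 and chr8:11312555-11312854 for Col4a2, and the windows share 78 bases. Capitals mark matches, on either strand, to CCAAT (or ATTGG when read on the other strand), GGGCGG (or CCGCCC when read on the other strand) and ACGTG or GCGTG, and TATAAA was searched too.
Col4a1: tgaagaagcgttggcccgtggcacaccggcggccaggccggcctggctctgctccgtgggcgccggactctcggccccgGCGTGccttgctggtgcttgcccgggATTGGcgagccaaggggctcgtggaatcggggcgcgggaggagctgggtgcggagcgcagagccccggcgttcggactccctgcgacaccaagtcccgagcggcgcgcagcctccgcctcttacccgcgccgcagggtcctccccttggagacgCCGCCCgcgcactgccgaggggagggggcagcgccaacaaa
Col4a2: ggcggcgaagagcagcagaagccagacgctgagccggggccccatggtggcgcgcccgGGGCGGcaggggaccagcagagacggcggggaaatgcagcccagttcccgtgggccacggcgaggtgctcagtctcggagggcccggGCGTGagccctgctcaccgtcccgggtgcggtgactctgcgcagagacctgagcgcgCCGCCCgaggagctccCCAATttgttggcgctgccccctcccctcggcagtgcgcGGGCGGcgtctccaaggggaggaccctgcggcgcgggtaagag
In the Col4a1 window GCGTG lay 171 bases and ATTGG 145 bases before the start. In the Col4a2 window GCGTG lay 105 bases and CCAAT 32 bases before the start. Neither window held TATAAA. GC content was 74.0% and 73.7%, against a median of 52.7% over all 32851 promoters of the table. The median over the collagen promoters was 59.8%. Of the 44 genes, 35 had 38 promoters there, of which 60.5% held GGGCGG, 34.2% CCAAT, 34.2% ACGTG or GCGTG and 13.2% TATAAA, against 35.7%, 37.4%, 43.8% and 13.6% of all promoters. ACGTG also lies inside the longer motif CACGTG. Such a match is a description of letters and not of a bound site. Col12a1, Col14a1, Col1a1, Col22a1, Col26a1, Col2a1, Col4a3, Col5a2 and Col9a3 had no entry.

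Collagen genes rose in OIR retinas at both ages, 7 of them at p14 and 17 at p17. No collagen gene passed the test in the lower direction at either age. Of all genes tested, 2.91% were lower at p14 and 5.12% at p17, so 0 in 44 genes lies near these shares. In the p14 comparison, 7 of 44 were higher (15.9% of the collagens, against 3.18% of the 27137 genes tested): Col4a1, Col18a1, Col1a1, Col2a1, Col5a1, Col5a3 and Col6a3. At p17, 17 of 44 were higher (38.6%, against 7.39% of all genes). These were Col4a1, Col4a2, Col4a3, Col15a1 and Col18a1 of the basement membrane, the fibrillar Col1a1, Col1a2, Col2a1, Col3a1, Col5a1, Col5a2 and Col5a3, the type VI chains Col6a1, Col6a2 and Col6a3, the FACIT chain Col16a1 and the short-chain Col10a1. All 7 genes of p14 were among the 17 of p17, and all 17 had the larger log2 fold change at p17. The 17 were picked by the p17 test, which favors a larger value there. Over all 44 collagens, 28 (63.6%) had the larger log2 fold change at p17. The median of p17 minus p14 was 0.26 over the 44 and −0.02 over all genes tested. The other 27 collagens passed the test at neither age. Without OIR p14 mouse S4, 7 collagens were higher at p14, 6 of them from this list, with log2 fold changes from 0.70 (Col5a3) to 3.60 (Col6a3). Of all 27135 genes tested without that mouse, 736 were higher. Classes are set side by side by counts and medians and were not tested against each other. Here a gene was higher or lower where limma gave an adjusted p (Benjamini-Hochberg over all genes tested) below 0.05 on log2(normalized reads + 1), and SE is the standard error of the log2 fold change. Of the collagens with log2 fold changes below 0, Col26a1 had the smallest adjusted p at p14 (−0.51, adjusted p = 0.226). At p17 the 3 smallest were those of Col22a1 (−1.32, adjusted p = 0.0612), Col19a1 (−0.71, adjusted p = 0.112) and Col23a1 (−0.62, adjusted p = 0.157). On the recovered read counts, edgeR called no collagen lower at p14 or p17, and DESeq2 called none at p14 and 1 at p17. Of the 27137 genes, edgeR called 697 lower at p14 and 1190 at p17, and DESeq2 978 and 1525.

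With the study's stricter rule, a log2 fold change above 2 besides the adjusted p, the higher collagens were Col1a1 and Col6a3 at p14 (4.55% of the collagens, against 0.744% of all genes) and Col1a1, Col3a1, Col4a1, Col4a2, Col5a2, Col6a3, Col10a1, Col15a1 and Col18a1 at p17 (20.5%, against 1.9% of all genes). The values of every OIR mouse lay above those of every nOIR mouse for none of the 44 genes at p14, where 1.91% of all genes showed this. At p17 this held for 13 of the 44 (29.5%, against 3.9% of all genes). The median log2 fold change of the 44 genes was 0.33 at p14 and 0.39 at p17, and that of all genes tested was 0.02 and −0.02.

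**Figure D1:**
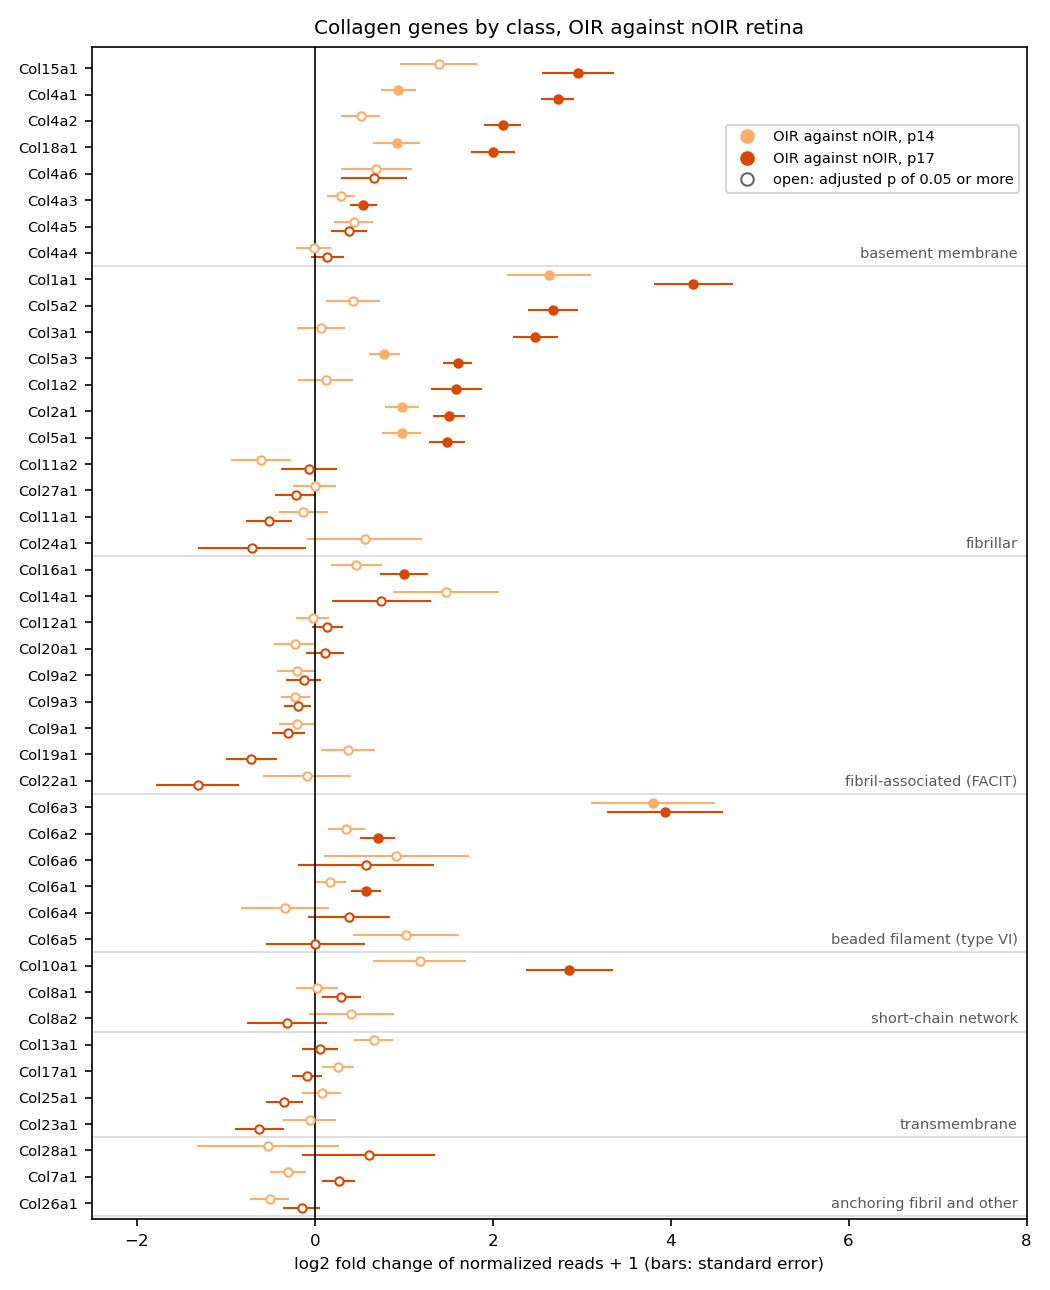
Log2 fold change ± standard error of each of the 44 collagen genes in OIR against nOIR retinas at p14 (light) and p17 (dark), grouped by collagen class, from limma on log2(normalized reads + 1), with open symbols where the adjusted p is 0.05 or more. The filled p17 symbols fall in the basement membrane (5 of 8), fibrillar (7 of 11) and type VI (3 of 6) classes. Another 1 of 9 lies in the FACIT class and 1 of 3 in the short-chain class. Of all genes tested, 7.39% were higher at p17.

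In the basement membrane class, 2 of 8 genes were higher at p14 (against 3.18% of all genes) and 5 of 8 at p17 (against 7.39%). The class median log2 fold change was 0.61 and 1.34. Col4a1 encodes the alpha1 chain of type IV collagen, found in the basement membrane of every vessel. Its lowest, median and highest normalized reads were 2101, 2377 and 3652 in nOIR p14, 3059, 4565 and 8995 in OIR p14, 1745, 1913 and 2307 in nOIR p17 and 7585, 13881 and 16981 in OIR p17. At p14 the groups overlapped, with 5 of 6 OIR mice above every control, and at p17 they did not. The ratio of the group means was 2.02 at p14 and 6.78 at p17, and the log2 fold change was 0.94 (SE 0.20, adjusted p = 0.00271) at p14 and 2.73 (SE 0.19, adjusted p = 6.82e-12) at p17. In bulk retina, more cells of a type and more RNA per cell cannot be told apart.

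Col4a2, whose alpha2 chain assembles with alpha1, had 1617, 1825 and 2719 normalized reads in nOIR p14 (again lowest, median and highest), 1439, 2699 and 5339.7 in OIR p14, 1263, 1619 and 1892 in nOIR p17 and 4022, 7372 and 9574 in OIR p17. The p14 groups overlapped and the gene did not pass the test there, with a log2 fold change of 0.52 (SE 0.22, adjusted p = 0.198). Without OIR p14 mouse S1, which had the lowest value in 5 of the 7 collagens higher at p14, it was 0.70 (adjusted p = 0.0348). At p17 every OIR mouse lay above every control, and the log2 fold change was 2.11 (SE 0.20, adjusted p = 6.22e-09).

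Col18a1 encodes type XVIII collagen, whose carboxy-terminal fragment is endostatin, an inhibitor of vessel growth. It had 701, 988 and 1217 normalized reads in nOIR p14, 886, 1627 and 5474 in OIR p14, 647, 764 and 924 in nOIR p17 and 1857, 3376 and 3631 in OIR p17. At p14, 4 of 6 OIR mice lay above every control, the top value being that of OIR p14 mouse S4, which also held the most Optc. The log2 fold change at p14 was 0.92 (SE 0.26, adjusted p = 0.0306), and without that mouse it was 0.60 (adjusted p = 0.0714). The p14 call was lost in 5 alternatives and on leaving out any 1 of 6 mice, S4 among them. Its log2 fold change there was 0.60 to 1.19 over all alternatives. At p17 the groups did not overlap and it was 2.01 (SE 0.24, adjusted p = 4.34e-07).

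Col15a1, the type XV chain of vessel and muscle basement membranes, was low in controls, with 5.23, 9.88 and 39.1 normalized reads in nOIR p14 and 3.84, 13.4 and 18.1 in nOIR p17. OIR retinas held 17.1, 41.8 and 55.0 at p14, overlapping the controls, and 51.6, 101 and 149 at p17, all above the controls. The log2 fold change was 1.39 (SE 0.43, adjusted p = 0.0512) at p14 and 2.96 (SE 0.40, adjusted p = 2.68e-06) at p17.

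The remaining type IV chains had smaller p17 log2 fold changes. Col4a3, a chain of the mature kidney and eye basement membranes, had 236, 255 and 327 normalized reads in nOIR p17 and 305, 384 and 499 in OIR p17, with 6 of 8 OIR mice above every control. Its log2 fold change was 0.55 (SE 0.15, adjusted p = 0.0109) at p17 and 0.30 (SE 0.16, adjusted p = 0.35) at p14. With the replicate number as a block, the p17 call was lost (adjusted p = 0.0553). The p17 log2 fold change was 0.46 to 0.62 over all alternatives. The annotated exons of Col4a3 share 5.65% of their bases with the antisense gene C430014B12Rik, and the libraries did not mark the strand. Col4a4 and Col4a5, which assemble with Col4a3, had p17 log2 fold changes of 0.14 and 0.39 (adjusted p = 0.727 and 0.255), and Col4a6, a partner of Col4a5, 0.67 (adjusted p = 0.293). At p14 these were −0.01, 0.44 and 0.69 (adjusted p = 0.989, 0.305 and 0.403). Normalized reads of Col4a4 were 115 to 230.1 in nOIR p17 and 119.8 to 300.0 in OIR p17, of Col4a5 206 to 282 and 196 to 449, and of Col4a6 24.9 to 65.9 and 23.1 to 135. The groups overlapped for each of the 3.

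**Figure D2:**
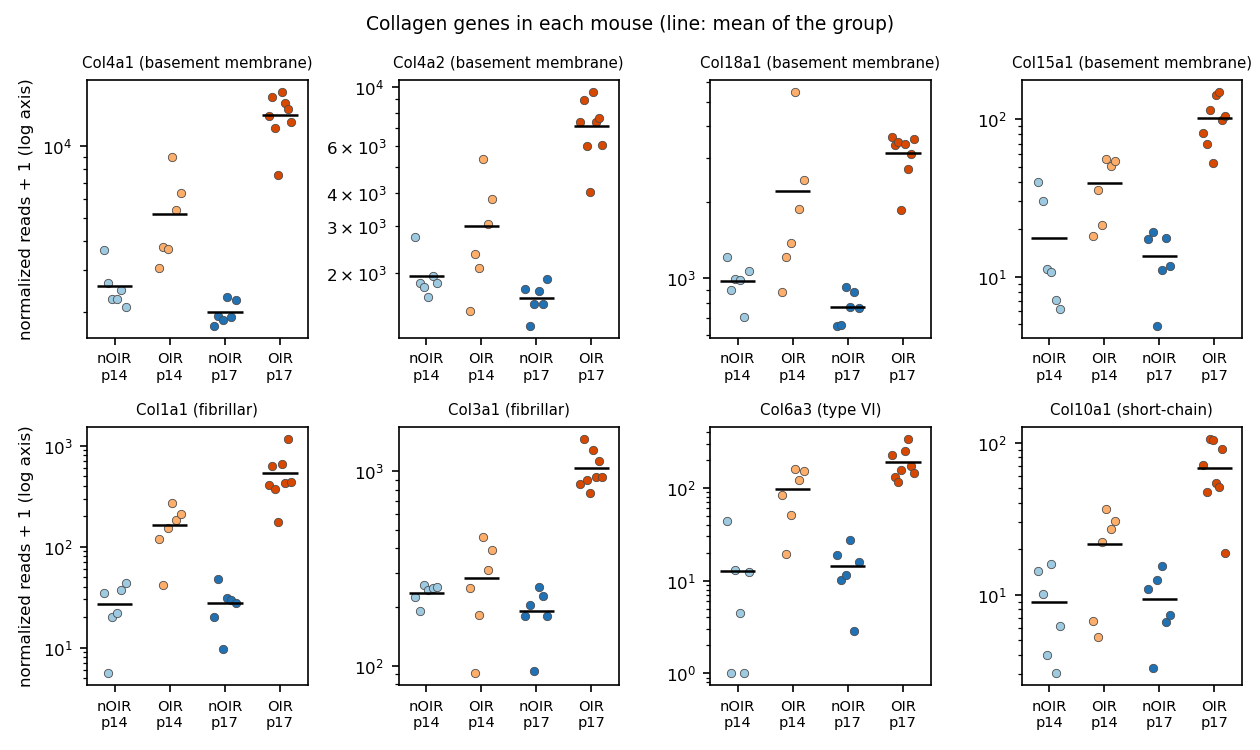
Normalized reads + 1 of 8 collagen genes in each mouse of the 4 groups, on a log axis, with 1 point per mouse and a line at the group mean. At p17 the 8 OIR mice lie above the 6 nOIR mice in all 8 panels, and at p14 the groups overlap in all 8.

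In the fibrillar class, 4 of 11 genes were higher at p14 (against 3.18% of all genes) and 7 of 11 at p17 (against 7.39%). The class median log2 fold changes were 0.43 and 1.51. Col1a1, the alpha1 chain of type I collagen, the main fiber of skin and bone, had the largest p17 log2 fold change of the 44 genes. Its normalized reads were 4.57, 27.4 and 42.9 (lowest, median and highest) in nOIR p14, 40.8, 168 and 269 in OIR p14, 8.64, 27.7 and 46.5 in nOIR p17 and 173, 434 and 1165 in OIR p17. At p14, 5 of 6 OIR mice lay above every control, and at p17 the groups did not overlap. The ratio of the group means was 6.16 at p14 and 20.2 at p17, and the log2 fold change was 2.63 (SE 0.47, adjusted p = 0.000473) at p14 and 4.25 (SE 0.44, adjusted p = 2.33e-08) at p17. The nOIR p14 mouse that was left out held 185 normalized reads of Col1a1, and with it the p14 log2 fold change was 2.20 (adjusted p = 0.00799).

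Col1a2, the partner chain of Col1a1, had more reads in controls and smaller log2 fold changes. Normalized reads were 244, 349 and 773 in nOIR p14, 250.2, 424 and 574 in OIR p14, 192, 228 and 435 in nOIR p17 and 396, 722 and 1827 in OIR p17. The p14 groups overlapped widely, with a log2 fold change of 0.13 (SE 0.31, adjusted p = 0.91). At p17, 7 of 8 OIR mice lay above every control, and it was 1.59 (SE 0.29, adjusted p = 0.000173).

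Col3a1, the chain of type III collagen in the wall of larger vessels, had 189, 246 and 258 normalized reads in nOIR p14, 90.2, 278 and 459 in OIR p14, 92.2, 192 and 254 in nOIR p17 and 767, 930.3 and 1460.0 in OIR p17. The p14 groups overlapped, while at p17 the lowest OIR mouse lay above the highest control. The log2 fold change was 0.07 (SE 0.27, adjusted p = 0.946) at p14 and 2.48 (SE 0.25, adjusted p = 1.64e-08) at p17. The left-out nOIR p14 mouse held 805 normalized reads of Col3a1, above all other p14 mice. With it the p14 log2 fold change was −0.18 (adjusted p = 0.849).

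The type V chains, which join type I fibers and set their width, were higher at p17 for all 3 genes. Col5a2 had 39.7, 70.2 and 129.6 normalized reads in nOIR p17 and 368, 449 and 564 in OIR p17, with no overlap, and 60.3, 93.9 and 165 and 56.5, 152 and 223 in nOIR and OIR p14, which overlapped. Its log2 fold change was 0.43 (SE 0.30, adjusted p = 0.533) at p14 and 2.68 (SE 0.28, adjusted p = 3.20e-08) at p17. Col5a1 and Col5a3 were higher at both ages, with 5 of 6 OIR mice above every control at p14 and 8 of 8 at p17. Col5a1 had 90.0, 140.2 and 202 normalized reads in nOIR p14, 195, 267 and 473 in OIR p14, 118, 171 and 253 in nOIR p17 and 338, 491 and 651 in OIR p17. For Col5a3 these were 434, 602 and 1056, 739, 1117 and 1469, 305, 402 and 429.9 and 812, 1196 and 1582. Log2 fold changes of Col5a1 were 0.98 (SE 0.22, adjusted p = 0.00429) at p14 and 1.49 (SE 0.20, adjusted p = 2.65e-06) at p17, and those of Col5a3 0.78 (SE 0.18, adjusted p = 0.00475) and 1.61 (SE 0.16, adjusted p = 1.56e-08).

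Col2a1, the fiber chain of cartilage and vitreous, was the most abundant fibrillar collagen by normalized reads, with 2397, 2929 and 4259 in nOIR p14, 2883, 6673 and 9015 in OIR p14, 1863, 1890.1 and 2182 in nOIR p17 and 3529, 5940.2 and 6963 in OIR p17. All but 1 of the OIR p14 mice and all OIR p17 mice lay above every control of their age. The log2 fold change was 0.98 (SE 0.19, adjusted p = 0.00141) at p14 and 1.51 (SE 0.18, adjusted p = 3.28e-07) at p17. The 4 other fibrillar genes, Col11a1, Col11a2, Col24a1 and Col27a1, had p17 log2 fold changes of −0.71 to −0.06 and passed the test at neither age.

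Of the 6 type VI genes, 1 was higher at p14 (against 3.18% of all genes) and 3 at p17 (against 7.39%). The class median log2 fold changes were 0.64 and 0.57. Col6a3, whose chain is needed for type VI filaments to form, was low in controls, with 0, 7.51 and 42.6 normalized reads in nOIR p14, where 2 mice were at 0, and 1.86, 12.7 and 26.5 in nOIR p17. OIR retinas held 18.3, 101 and 159.7 at p14, with 5 of 6 above every control, and 115, 164 and 336 at p17, all above the controls. The log2 fold change was 3.80 (SE 0.70, adjusted p = 0.000614) at p14 and 3.93 (SE 0.65, adjusted p = 5.26e-05) at p17, and the ratio of the group means was 8.33 and 14.2. The size at p14 depended on the setting. Its log2 fold change there was 4.98 with a pseudocount of 0.1, 3.04 with edgeR and 3.06 with DESeq2 on the recovered reads and 4.39 without nOIR p14 mouse S1, and it passed the test in each (adjusted p of 4.51e-05 to 0.00947 over all alternatives). Its partner chains had more reads and smaller log2 fold changes. Col6a1 had 1366, 1569 and 2735 normalized reads in nOIR p17 and 1691, 2627 and 3096 in OIR p17, and Col6a2 411, 476 and 669 and 559, 868 and 1009.7. The groups overlapped for both, with 4 and 7 of 8 OIR mice above every control. Log2 fold changes at p17 were 0.57 (SE 0.17, adjusted p = 0.0215) for Col6a1 and 0.71 (SE 0.20, adjusted p = 0.0125) for Col6a2. Without nOIR p17 mouse S3 or S4 that of Col6a1 was 0.53 (adjusted p = 0.0573) or 0.51 (adjusted p = 0.0663). At p14 neither passed the test (0.18 and 0.35, adjusted p = 0.721 and 0.424), and without OIR p14 mouse S1 that of Col6a2 was 0.59 (adjusted p = 0.035). Col6a4, Col6a5 and Col6a6 had p17 log2 fold changes of 0.01 to 0.57.

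Of the FACIT, short-chain, transmembrane and other classes, 19 genes in all, none was higher at p14 and 2 were at p17. Of all genes tested, 3.18% were higher at p14 and 7.39% at p17, so in 19 genes both counts lie near these shares. Col16a1, a FACIT chain, had 33.1, 78.5 and 92.4 normalized reads in nOIR p17 and 99.0, 141 and 235 in OIR p17, with a log2 fold change of 1.00 (SE 0.27, adjusted p = 0.00978). Col10a1, the short-chain collagen of growth plate cartilage, had 2.04, 7.19 and 14.9 normalized reads in nOIR p14, 4.29, 23.7 and 35.5 in OIR p14, 2.27, 8.14 and 14.3 in nOIR p17 and 17.9, 61.8 and 105 in OIR p17. Its p17 groups did not overlap, and the log2 fold change was 2.86 (SE 0.49, adjusted p = 8.40e-05) there and 1.18 (SE 0.52, adjusted p = 0.233) at p14. The most abundant FACIT gene was Col9a1, a type IX chain of vitreous and cartilage fibers, with 2924, 3298 and 3877 normalized reads in nOIR p17 and 2292, 2633 and 4156 in OIR p17. Of the 8 OIR mice, 7 lay below every control and 1, mouse S4, above, and the log2 fold change was −0.30 (SE 0.19, adjusted p = 0.373). The transmembrane Col23a1 also had 7 OIR p17 mice below every control and 1 above, with a log2 fold change of −0.62 (SE 0.28, adjusted p = 0.157). The other FACIT genes ranged from −1.32 (Col22a1, adjusted p = 0.0612) to 0.75 at p17. The 4 transmembrane genes ranged from −0.62 to 0.06 and the other 3 from −0.15 to 0.61, and the class medians at p17 were −0.13 for FACIT, −0.22 for transmembrane and 0.27 for the other collagens. At p14 the transmembrane genes ranged from −0.06 to 0.66 (median 0.17) and the other 3 from −0.52 to −0.30 (median −0.51), while the FACIT genes ranged from −0.23 to 1.47 (median −0.09). The highest of these were the FACIT gene Col14a1, with 1.47 (SE 0.59, adjusted p = 0.168), and the transmembrane Col13a1, with 0.66 (SE 0.22, adjusted p = 0.0693), each with 5 of 6 OIR p14 mice above every control. The 3 short-chain genes ranged from 0.03 to 1.18 at p14 (median 0.41) and from −0.31 to 2.86 at p17 (median 0.30).

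Whether the OIR effect itself differed between the ages was tested as the p17 log2 fold change minus that of p14, within the same fit. It was larger at p17 for 4 of the 44 genes (9.09%, against 1.43% of all genes) and smaller for none, where 0.147% of all genes were smaller. The 4 were Col3a1 with a difference of 2.40 (SE 0.37, adjusted p = 0.000196), Col5a2 with 2.25 (SE 0.41, adjusted p = 0.00183), Col4a1 with 1.79 (SE 0.27, adjusted p = 0.000159) and Col4a2 with 1.59 (SE 0.30, adjusted p = 0.00218). Of the collagens with a difference below 0, Col19a1 had the smallest adjusted p (−1.09, adjusted p = 0.286). For no collagen did edgeR or DESeq2 call a smaller effect, where they called 38 and 93 of 27137 genes smaller. The differences of Col1a1 and Col6a3, the genes with the largest p14 effects, were 1.62 (SE 0.65, adjusted p = 0.314) and 0.13 (SE 0.96, adjusted p = 0.983) and did not pass the test. For Col1a2 the difference was 1.47 (SE 0.42, adjusted p = 0.0821), and 1.56 (adjusted p = 0.0475) with the left-out mouse. For Col18a1 it was 1.09 (SE 0.36, adjusted p = 0.159), and 1.40 (adjusted p = 0.00204) without OIR p14 mouse S4. The difference of Col5a3 was 0.83 (SE 0.24, adjusted p = 0.0858). It passed the test without OIR p14 mouse S4, nOIR p14 mouse S6 or OIR p17 mouse S4, and with DESeq2 (0.68 to 0.94 over all alternatives).

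Between the control groups, which also serve as the controls of the OIR comparisons, no collagen gene passed the test for a difference of p17 from p14, where 0.158% of all genes were higher and 0.158% lower. The median log2 difference of the 44 genes was −0.16, and that of all genes tested was −0.01. Applied to the recovered reads, edgeR called none, where it called 44 of 27137 genes higher and 47 lower. DESeq2 called 2 collagens lower, where it called 127 of 27137 genes lower. Col2a1 and Col5a3 were the genes for which every nOIR p17 mouse lay below every nOIR p14 mouse (0.674% of all genes did so), with log2 differences of −0.65 (SE 0.19, adjusted p = 0.199) and −0.72 (SE 0.18, adjusted p = 0.0726). Age and litter cannot be told apart here. Without litter labels, the same holds for OIR and litter in the comparisons of OIR with nOIR.

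Chains of the same or a partner collagen were then set against each other in 12 pairs. Reads per kilobase were compared within each mouse, as normalized reads divided by the length of all annotated exons, so that the size of a ratio depends on that length, while its order between mice and its fold between groups do not. The ratio of Col4a1 to Col4a2 was 1.02 to 1.29 in nOIR p14, 1.41 to 1.89 in OIR p14, 0.890 to 1.35 in nOIR p17 and 1.57 to 1.86 in OIR p17. It was higher in every OIR mouse than in every control of the same age, at p14 as well as at p17. The ratio of Col1a1 to Col1a2 was 0.0204 to 0.295 in nOIR p14 and 0.309 to 0.955 in OIR p14, and 0.0682 to 0.415 in nOIR p17 and 0.826 to 1.56 in OIR p17, with no overlap at either age. The nOIR p14 mouse that was left out had a ratio of 0.594, within the OIR p14 range. That of Col6a2 to Col6a1 was 0.135 to 0.152, 0.119 to 0.214, 0.129 to 0.205 and 0.131 to 0.205 in the same order, and the groups overlapped. The ratio of Col5a1 to Col5a2 had a lower mean in OIR than in nOIR at p17, with 3.17 ± 1.71 (SD) in nOIR p17 and 1.24 ± 0.234 in OIR p17, but the ranges of 1.46 to 5.77 and 1.01 to 1.58 overlapped. Of the 12 pairs, OIR and control mice separated in 2 at p14 (Col4a1 to Col4a2 and Col1a1 to Col1a2) and in 3 at p17, where Col6a3 to Col6a1 was the other one, in each case with the higher ratio in OIR. With the left-out mouse 1 pair separated at p14, Col4a1 to Col4a2. The groups overlapped at both ages for Col4a3 to Col4a4, Col4a5 to Col4a6, Col9a1 to Col9a2, Col9a3 to Col9a2, Col8a1 to Col8a2, Col3a1 to Col1a2 and Col11a1 to Col11a2, as they did for Col6a2 to Col6a1 and Col5a1 to Col5a2. These ratios were described and not tested.

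**Figure D3:**
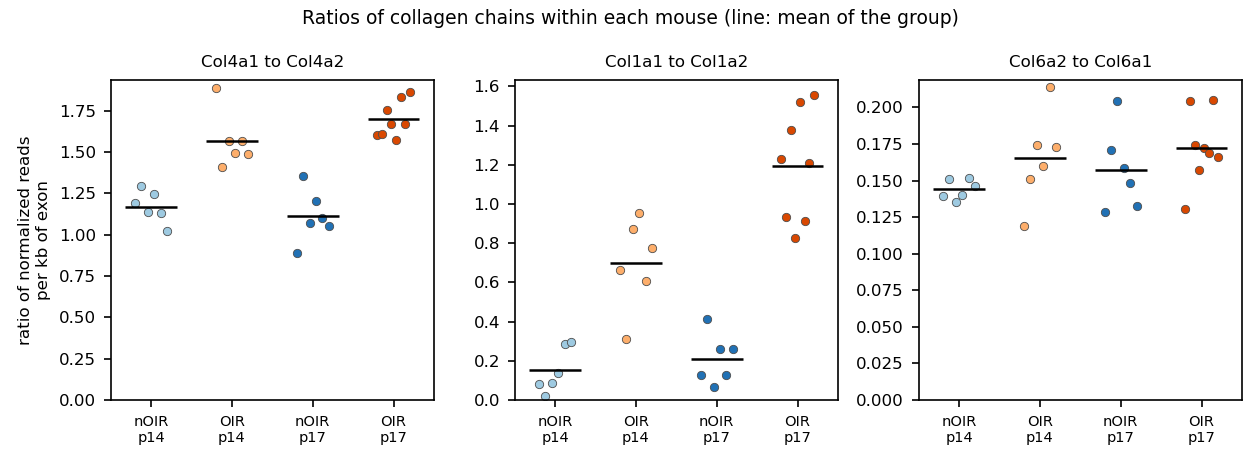
Ratio of reads per kilobase of Col4a1 to Col4a2, Col1a1 to Col1a2 and Col6a2 to Col6a1 in each mouse of the 4 groups, with 1 point per mouse and a line at the group mean. The means of Col4a1 to Col4a2 are 1.17 in nOIR p14, 1.57 in OIR p14, 1.11 in nOIR p17 and 1.70 in OIR p17, and the OIR and nOIR mice separate in the left and middle panels but not in the right one.

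The share of the classes among the collagen reads was also followed. Collagen genes took 0.0976% ± 0.0161 (SD) of all reads in nOIR p14, 0.133% ± 0.0414 in OIR p14, 0.0794% ± 0.00572 in nOIR p17 and 0.179% ± 0.0270 in OIR p17. By reads per kilobase, basement membrane genes made up 19.9% ± 2.08 (SD) of the collagen total in nOIR p14, 28.0% ± 5.41 in OIR p14, 19.1% ± 2.21 in nOIR p17 and 47.6% ± 5.50 in OIR p17, where the range was 34.7% to 51.6%. Col4a1 and Col4a2 together accounted for 13.7% ± 1.80 in nOIR p17 and 39.5% ± 5.04 in OIR p17. Fibrillar genes made up 13.9% ± 1.07 in nOIR p14, 19.5% ± 2.22 in OIR p14, 11.5% ± 0.565 in nOIR p17 and 16.9% ± 1.86 in OIR p17. The FACIT share was 32.0% ± 2.96 in nOIR p17 and 14.8% ± 3.74 in OIR p17, of which the type IX genes Col9a1, Col9a2 and Col9a3 held 28.8% ± 3.03 and 13.0% ± 3.70. Transmembrane genes made up 19.4% ± 0.758 and 7.50% ± 2.71. Shares add up to the whole, so the sums behind them are given too. From nOIR p17 to OIR p17 the sum of reads per kilobase went from 709 ± 59.4 to 3468 ± 728 (SD) for basement membrane, from 431 ± 39.4 to 1228 ± 262 for fibrillar, from 1196 ± 127 to 1040.1 ± 130.5 for FACIT and from 722 ± 41.8 to 538 ± 190.4 for transmembrane genes. The type IX sum went from 1074 ± 122 to 911 ± 140.2. The FACIT, type IX and transmembrane sums thus had lower means in OIR p17, and their ranges overlapped those of nOIR p17. The type VI, short-chain and other classes held 12.7% ± 2.78, 3.01% ± 0.941 and 2.28% ± 0.481 in nOIR p17 and 10.1% ± 2.14, 1.91% ± 0.495 and 1.25% ± 0.267 in OIR p17. Ordered by mean reads per kilobase, Col9a1 held rank 1 in nOIR p14, OIR p14 and nOIR p17 and rank 5 in OIR p17, while Col4a1 held ranks 4, 2, 4 and 1. Col1a1 held rank 38 in nOIR p17 and 14 in OIR p17, and Col3a1 held 26 and 11.

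**Figure D4:**
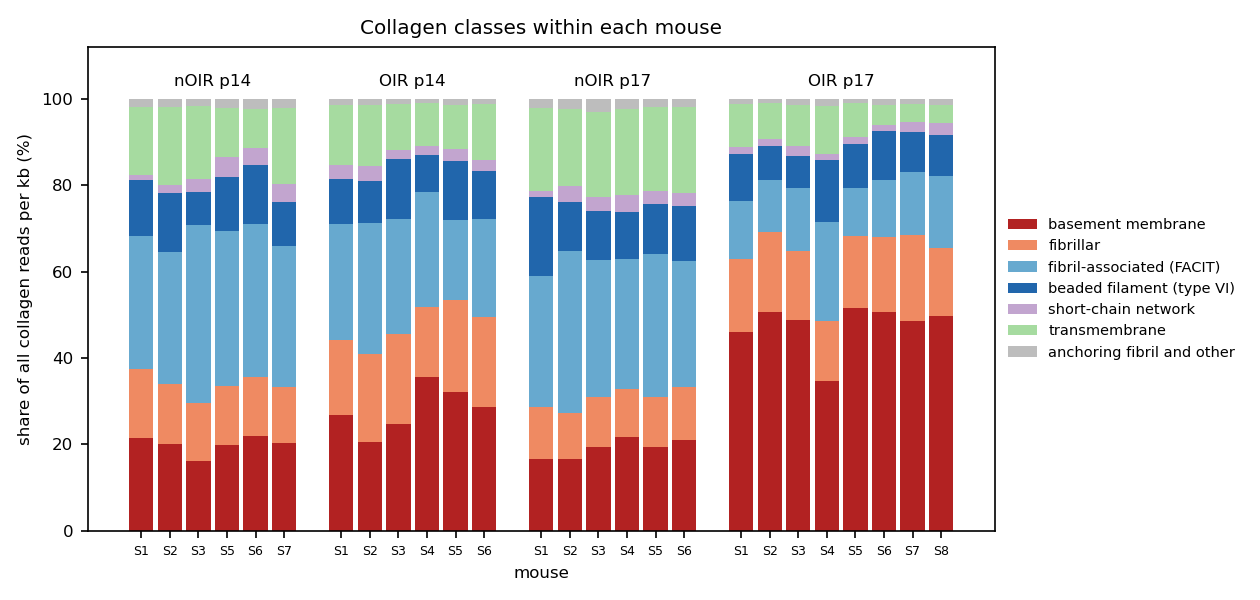
Share of all collagen reads per kilobase held by each of the 7 collagen classes in each mouse, as stacked bars that add up to 100%, with mice ordered by group. The basement membrane share averages 19.1% in nOIR p17 and 47.6% in OIR p17.

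Markers of vessel cells were higher with the collagens at p17 but for the most part not at p14, and their part in the results was not tested. The summed normalized reads of 8 endothelial markers were 3663 to 4384 in nOIR p14, 2803 to 4340.1 in OIR p14, 3259 to 4112 in nOIR p17 and 7400.0 to 9980.0 in OIR p17. At p14, 1 of 8 was higher (Pecam1) and 1 lower (Cldn5), and at p17 all 8 were higher. For all genes tested, the shares were 3.18% higher and 2.91% lower at p14, and 7.39% and 5.12% at p17. Of 8 pericyte markers, at p14 1 was higher (Ndufa4l2, log2 fold change 3.52) and 4 were lower (Abcc9, Higd1b, Kcnj8 and Rgs5, −1.72 to −1.10), and at p17 all 8 were higher. Without Ndufa4l2, the pericyte sum was 3555 to 4158, 1539.6 to 3273, 3004 to 3733 and 9071 to 12829.6 in the same order, and with it 3750.5 to 4361, 3844 to 5299, 3142 to 3889.8 and 11844 to 17517. Together, 5 of these 16 endothelial and pericyte markers were lower at p14 and 2 higher. Of 5 smooth muscle markers, 2 were higher at p14 (Acta2, 2.00, and Tagln, 1.23) and 5 at p17, with sums of 773 to 998, 1147 to 1996, 664 to 812 and 2052 to 4253.

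Set against the endothelial sum of the same mouse, Col4a1 had 51.2 to 89.7 reads per 100 marker reads in nOIR p14, 89.4 to 207 in OIR p14, 46.2 to 70.8 in nOIR p17 and 101 to 222 in OIR p17. OIR and control mice overlapped at p14 and did not overlap at p17. Against all 8 pericyte markers it had 52.0 to 97.4 in nOIR p14, 57.7 to 181 in OIR p14, 48.8 to 63.2 in nOIR p17 and 64.0 to 127 in OIR p17, which overlapped at p14 and did not at p17. Ndufa4l2, the pericyte marker that was higher at p14, was then left out, a choice made after its value was seen. Against the 7 others Col4a1 had 54.6 to 103 reads per 100 in nOIR p14, 133 to 290.5 in OIR p14, 50.9 to 65.3 in nOIR p17 and 83.6 to 159 in OIR p17, with no overlap at either age. Col18a1 had 18.4 to 29.9 in nOIR p14, 25.9 to 126 in OIR p14, 18.3 to 23.6 in nOIR p17 and 24.8 to 49.1 in OIR p17 per 100 endothelial reads, which overlapped at p14 and did not at p17. Against all 8 pericyte markers it had 16.8 to 32.5 in nOIR p14, 16.7 to 110.4 in OIR p14, 19.9 to 28.4 in nOIR p17 and 15.7 to 26.6 in OIR p17, overlapping at both ages. Without Ndufa4l2 these were 17.6 to 34.2, 38.5 to 167, 20.5 to 29.4 and 20.5 to 31.8, which separated at p14 and overlapped at p17. The upper limits of Col18a1 in OIR p14 were those of mouse S4, and without it they were 67.9 per 100 endothelial reads, 55.3 per 100 reads of all 8 pericyte markers and 101.3 without Ndufa4l2. These ratios were described and not tested.

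Of 7 fibroblast markers, 1 was higher at each age (Pdgfra, 0.70 and 0.82, a gene that retinal astrocytes also express). Their sums were 542 to 724 in nOIR p14, 715 to 1804 in OIR p14, 415 to 704 in nOIR p17 and 734 to 1278 in OIR p17, which overlapped at p14 and did not at p17. Log2 fold changes were above 0 for 5 of the 7 at p14 (median 0.60) and 7 of 7 at p17 (median 0.87). The proteoglycan Lum, which binds type I fibers, had a median of 0 normalized reads in nOIR p14, OIR p14 and nOIR p17 and of 8.11 in OIR p17 (range 0 to 33.8), with a p17 log2 fold change of 2.36 (SE 0.82, adjusted p = 0.0562). No marker of retinal pigment epithelium (0 of 6), lens (0 of 8) or ciliary body and iris (0 of 4) passed the test at either age. Among all genes tested, 3.18% were higher and 2.91% lower at p14, and 7.39% and 5.12% at p17. The sums of the pigment epithelium and ciliary body markers ran from 993 to 6518 and from 74.0 to 1416 normalized reads over the groups. The 1416 was that of OIR p14 mouse S4, and the highest ciliary body sum was 208 in the other OIR p14 mice and 416 in the other groups. The lens sum had a median of 406 in nOIR p14, 2397 in OIR p14, 2362 in nOIR p17 and 8162 in OIR p17, with ranges of 40.0 to 19516, 62.3 to 6908, 139 to 11583 and 313 to 34419.6 that overlapped, and all 8 lens markers had log2 fold changes above 0 at both ages (medians 1.26 at p14 and 1.58 at p17). With the lens gene Cryaa as a covariate, 9 collagens were higher at p14 and 17 at p17, where 871 and 1917 of 27137 genes were higher. Of 6 markers of cornea, sclera and cartilage, 1 was lower at p14 (Cnmd) and none passed at p17, and Kera was at 0 in all p14 mice used. Of 4 astrocyte markers, 3 were higher at p14 and 4 at p17, and of 6 microglia and macrophage markers 1 and 4. Of 6 Müller glia markers, 1 was higher and 3 lower at p14, and 1 higher and 4 lower at p17. Ganglion cell markers were lower for 1 of 5 at p14 and 2 at p17. Of 5 rod markers, 2 were lower at p14 and 3 at p17, and none had a log2 fold change above 0 at either age (−0.52 to −0.07 at p14 and −0.39 to −0.05 at p17).

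Genes that make, cut and bind collagen were taken from lists of known function, and the values in parentheses are log2 fold changes. The shares of all genes tested were 3.18% higher and 2.91% lower at p14, and 7.39% and 5.12% at p17. Of 20 genes that modify and fold the chains inside the cell, 5 were higher at p14 and 13 at p17. None was lower, which in 20 genes lies near the share of all genes. The higher genes included Serpinh1, the collagen chaperone HSP47, with 642 ± 106 normalized reads (SD) in nOIR p17 and 3484 ± 1091 in OIR p17 and a log2 fold change of 2.39 (SE 0.16, adjusted p = 4.30e-12), the lysyl hydroxylase Plod1 (0.99) and the prolyl isomerase Fkbp10 (1.52). Of 8 genes that cleave the propeptides or help in it, 3 were higher at p14, and at p17 2 were higher and 2 lower. Pcolce, an enhancer of that cleavage, had 52.4 to 99.4 normalized reads in nOIR p14, 594 to 3800.5 in OIR p14, 70.3 to 129.6 in nOIR p17 and 572 to 2723 in OIR p17, with no overlap at either age. Its log2 fold change was 4.63 (SE 0.36, adjusted p = 1.02e-09) at p14 and 3.98 (SE 0.33, adjusted p = 3.82e-10) at p17. The amino-terminal propeptidase gene Adamts2 was higher (1.31 and 1.95), and Tll2, a protease of the Bmp1 family, was lower at p17 (−2.33).

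Of 6 crosslinking enzymes, 1 was higher at p14 and 5 at p17, among them the lysyl oxidase-like genes Loxl2 (1.95 at p14 and 2.31 at p17), Loxl3 (1.57) and Loxl4 (1.10). Of 15 other basement membrane genes, 2 were higher at p14 and 8 at p17. They included Nid1 (2.32) and Nid2 (1.30 and 2.77), which link laminin to type IV collagen, and the laminin chain Lama4 (2.03). Of 10 receptors of collagen or of its matrix, 4 were higher at p14 and 6 at p17. They included Mrc2, which takes up collagen fragments (2.57 and 3.97), the endothelial receptor Cd93 (0.85 and 2.52) and the integrin subunit Itgb1 (0.39 and 1.11). None of the crosslinking, basement membrane or receptor genes was lower at either age. Of all genes tested, 3.18% were higher and 2.91% lower at p14, and 7.39% and 5.12% at p17. In lists this short, 0 lower genes lies near the share of all genes.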

How the data were processed

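Total retinal RNA of 27 mice was sequenced as single reads from libraries that did not mark the strand. According to the study's methods and processing notes, the authors checked reads with FastQC (0.73), mapped them with STAR (2.7.8a) to Gencode M28, counted them with featureCounts (2.0.1) and normalized them with DESeq2 (1.34, R 4.0.3). The deposited values are a signal, read counts divided by the size factor of each mouse, and 100% of values gave whole reads when multiplied back (tolerance 1e-06). The authors' columns of group means, log2 fold changes and adjusted p-values were not used.

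Those genes whose mean over 26 mice reached 1 normalized read (27137 of 40129) were tested with limma (3.58.1, trended empirical Bayes, R 4.3.3) on log2(normalized reads + 1), with the 4 groups in 1 fit, mouse S4 of nOIR p14 left out as in the study and Benjamini-Hochberg adjustment over all genes tested. Log2 fold changes are therefore on the log2(normalized reads + 1) scale, where the added 1 draws low values together, and for low genes they can lie above or below the log2 ratio of the group means. The steps were tested on simulated data for OIR p17 against nOIR p17. There, 89.5% of 200 genes changed by 2 on the log2 scale were called, with 9 false calls among 27055 genes. When none was changed, 0 of 27079 genes were called. The 200 genes had means of at least 10 and the simulated mice were independent, so lower genes and littermates were not covered. No library was a copy of another: the least different pair within a group gave a chi-square of 9.39 per degree of freedom over genes, where sampling alone gives about 1.

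Collagen genes that passed the test at p14, at p17 or in the difference, the 6 type IV chains, Col1a1, Col1a2 and Col3a1 are described with values, and of each pathway list the 3 genes with the smallest adjusted p at p17; other collagens named with a value (Col9a1, Col13a1, Col14a1, Col19a1, Col22a1, Col23a1 and Col26a1) and marker genes were chosen after their values were seen. One rod marker is not reported here. Members, classes, pathway lists and cell type markers were chosen with earlier results of these data known. Alternatives were edgeR (4.0.16) and DESeq2 (1.42.0) on the recovered reads, the pseudocount 0.1, no filter beyond a mean above 0, a filter at a mean of 10, the left-out mouse, only the groups compared, the replicate block, the same total per mouse, quantile normalization, an adjusted p below 0.01, Cryaa as a covariate, each mouse left out and, added after seeing the data, Optc or Ttr as a covariate. Lengths for reads per kilobase are exon unions of GENCODE M21 (GRCm38), a build other than that of the authors, and 13 of the 44 genes share exon bases with another gene there, none over 10%. Promoter sequences are from RefSeq, GRCm38.p6.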

Additional observations from a re-analysis of the deposited data

Results flagged for a closer look

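Among the 20 collagen genes described with values, 80 gene and group combinations were searched for a mouse far from the rest of its group by Dixon's test at the 95% level, which chance marks in about 1 of 20 groups, and 10 were found. In OIR p17, mouse S4 was low in Col4a1 (7585 normalized reads) and Col18a1 (1857), and mouse S8 in Col10a1 (17.9). Mouse S4 of OIR p17 had the lowest value in 9 of the 17 collagens higher at p17, and without it the p17 log2 fold change of Col4a1 was 2.85 (adjusted p = 1.67e-12). In OIR p14, mouse S1 was low in Col6a1 (1283). In nOIR p17, S1 was high in Col6a1 (2735), S3 low in Col3a1 (92.2), S4 low in Col16a1 (33.1) and S6 high in Col2a1 (2182). In nOIR p14, S1 was high in Col4a2 (2719) and S3 low in Col4a3 (209).

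The OIR effect differed between the ages, by the test of the difference itself, in 4 collagen genes, as log2 fold change at p17 minus that at p14: 2.40 for Col3a1, 2.25 for Col5a2, 1.79 for Col4a1 and 1.59 for Col4a2.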

How the results depend on the processing

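The counts of higher collagens held within 1.5 times their value under all alternatives run. Over the alternatives other than leaving out a mouse, 6 to 9 collagens were higher at p14, 14 to 17 at p17 and 4 to 6 in the difference. Leaving out each mouse in turn gave 6 to 10, 16 to 17 and 4 to 6, with 2 genes past the log2 fold change of 2 at p14 and 8 to 9 at p17. No log2 fold change that passed the test changed sign. Of 80 log2 fold changes of described genes, 12 crossed 0 in some alternative, none of which had passed (the smallest adjusted p was 0.727), among them Col3a1 at p14 (−0.18 to 0.36), Col4a4 at p17 (−0.01 to 0.24) and Col6a3 in the difference (−0.89 to 0.79). The count of lower collagens at p17, 0 as reported, was 1 with a mean of at least 10, 2 with quantile normalization, 1 with DESeq2, 1 with Ttr as a covariate and 0 to 1 with a mouse left out (1 without nOIR p17 S5, OIR p14 S1, OIR p17 S2 or OIR p17 S4). Between nOIR p17 and nOIR p14 it was 1 with the left-out mouse, 2 with only the groups compared, 1 with the same total per mouse, 2 with DESeq2, 1 with Ttr and 0 to 2 with a mouse left out (1 without nOIR p14 S6 and 2 without OIR p14 S1). At p14 it was 1 with Optc as a covariate. Of all genes tested, those lower at p17 numbered 1500 (of 19004) with a mean of at least 10. Out of 27137 they numbered 1447 with quantile normalization, 1525 with DESeq2 and 1538 with Ttr. Between the control groups they numbered 60 with the left-out mouse, 90 with only the groups compared, 79 with the same total, 127 with DESeq2 and 68 with Ttr. With Optc, 759 were lower at p14. The cause was not tested.

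The p14 call of Col18a1 was lost with all genes above 0 (adjusted p = 0.0509), only the groups compared (0.105), an adjusted p below 0.01, Optc as a covariate (0.0615) and without nOIR p14 S2, S5 or S6 or OIR p14 S4, S5 or S6. Col15a1 passed at p14 in 5 alternatives and without 5 of the mice.

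Replicate numbers do not pair the mice: correlations of deviations from the group mean were −0.11 to 0.16 over 34 same-numbered pairs. With the replicate block, 6 collagens were higher at p14 (without Col18a1), 16 at p17 (without Col4a3) and 4 in the difference, and 2 and 8 passed the log2 fold change of 2. Col6a3, Col10a1, Col15a1 and Col1a1 had few reads in control mice, and the effect of depth on them was not tested.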
